A study of Rattus norvegicus with 9 samples.

Results

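Transcripts of 10 neuropeptide genes, namely Sst, Cck, Penk, Pdyn, Tac1, Vip, Crh, Npy, Scg2 and Vgf, were followed in rat primary hippocampal neurons incubated with N-terminal procalcitonin (NPCT) or its parent peptide procalcitonin (PCT). The members were taken by gene symbol from a table of 34092 genes, and each of the 10 symbols had 1 row. The neurons came from hippocampi of wild-type (WT) rat foetuses of embryonic day 17 and were grown in neurobasal medium with B27. At 7 days in vitro they received vehicle, 1 nM human NPCT or 1 nM human PCT for 24 h, and poly(A) RNA was then sequenced. Each treatment had 3 libraries, 9 in all. The labels number 3 replicates per treatment, whereas the methods speak of RNA from pooled biological triplicates, so the p values below measure the spread between these libraries, which may be technical.

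Neuropeptides are made as larger precursors that enter the secretory pathway, are cut by prohormone convertases and are stored in dense core vesicles, from which they are released upon strong or repeated firing. In the hippocampus, Sst, Npy, Vip and Cck mark different classes of GABAergic interneurons, although Cck transcripts are also abundant in pyramidal cells, and the opioid precursors Penk and Pdyn occur in interneurons and granule cells. Scg2 and Vgf belong to the granin-like proteins of the granule core, which serve as precursors of small peptides as well.

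Several of these genes are textbook targets of the transcription factor CREB, which binds the cyclic AMP response element, so the stretch of promoter with that motif is shown for those that have it. RefSeq promoters of the rat build GRCr8, running from 250 bases before to 50 bases after the annotated start, were at hand for 7 of the 10 genes (Sst, Npy, Pdyn, Tac1, Vip, Scg2 and Vgf), and there was no entry for Cck, Penk and Crh. The search covered both strands for the full palindrome TGACGTCA and for TGACGTC, which is contained in it. Sst, Scg2 and Vgf held the full palindrome, which 1.83% of the 33469 rat promoters of this length held, and Vip held the shorter form, which 3.22% held. Npy, Pdyn and Tac1 held neither in this window. Capitals mark the motif, and all 4 stretches read 5′ to 3′ on the strand of the gene. They lie at chr11:90461537-90461566 on the plus strand for Sst, chr9:88256952-88257019 on the minus strand for Scg2, chr12:25277073-25277140 on the minus strand for Vgf and chr1:44470353-44470419 on the plus strand for Vip. The first base of the motif stood 123 bases before the annotated start in Scg2, 90 bases before it in Vgf and 97 bases before it in Vip, whereas in Sst it was base 3 of the annotated transcript.
Sst: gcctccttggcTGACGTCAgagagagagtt
Scg2: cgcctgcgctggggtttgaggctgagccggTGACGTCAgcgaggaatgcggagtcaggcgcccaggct
Vgf: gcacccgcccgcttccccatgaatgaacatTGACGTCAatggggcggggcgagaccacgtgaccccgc
Vip: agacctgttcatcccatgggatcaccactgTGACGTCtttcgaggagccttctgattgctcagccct
These matches are letters in a window and do not show binding in these neurons. Values of the 4 genes with a motif and of the 3 without are given below.

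Expression is given as FPKM, fragments scaled by gene length and library depth, which allows levels of genes of different length to be compared. A trend with gene length remained and differed between libraries. Its slope on log2 scales was -0.00074 to 0.029 in vehicle, -0.026 to -0.018 in NPCT and -0.028 (replicate 3) to 0.027 in PCT libraries. The mitochondrial share of fragments was 5.18 to 5.84%, 3.70 to 4.17% and 4.11% (replicate 3) to 6.21% in the same order. The FPKM gave back whole fragments for every gene, and these summed to 13573056 to 17211642 per library. Libraries of a treatment differed by more than counting error, with a chi-square per degree of freedom of 4.16 to 21.6. PCT replicate 3 stood apart from its group (21.6 and 18.9 against the other PCT libraries, which gave 6.38 between them), and differences of the tested members that involve PCT are therefore also given without it. NPCT replicate 3 differed from the other NPCT libraries as well (10.6 and 10.8, against 4.38), and its microglial transcripts were raised. All 14 neuron markers passed the filter on low values, but so did all 12 astrocyte markers, so the cultures were mixed, and fewer cells of a type cannot be told apart from less RNA per cell.

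In vehicle-treated neurons the members spanned from over 100 FPKM to no fragment at all. Sst, the inhibitory peptide somatostatin, was the highest at 140 ± 5.55 FPKM (SD, n = 3) and ranked 456th of all genes in the table. Cck, cholecystokinin, followed at 107 ± 12.5 FPKM and Scg2, secretogranin II, at 47.3 ± 1.34 FPKM. Together with Sst, which made up 43.5% of the summed FPKM of the 10 members, Cck (33.3%) and Scg2 (14.7%) held most of the neuropeptide signal. The enkephalin precursor Penk reached 13.3 ± 1.90 FPKM, the growth factor-induced granin Vgf 5.45 ± 0.840 FPKM and Vip, vasoactive intestinal peptide, 4.18 ± 0.941 FPKM. Tac1, the precursor of substance P, stood at 2.99 ± 0.571 FPKM, and Crh, corticotropin-releasing hormone, at 1.31 ± 0.0665 FPKM. The dynorphin precursor Pdyn stayed at 0.303 ± 0.0363 FPKM, and Npy, neuropeptide Y, was listed at 0 in the 3 vehicle libraries. Neighbours in this order had separate ranges over the 3 vehicle libraries, except Vgf and Vip, and Vip and Tac1, whose ranges overlapped.

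**Figure D1:**
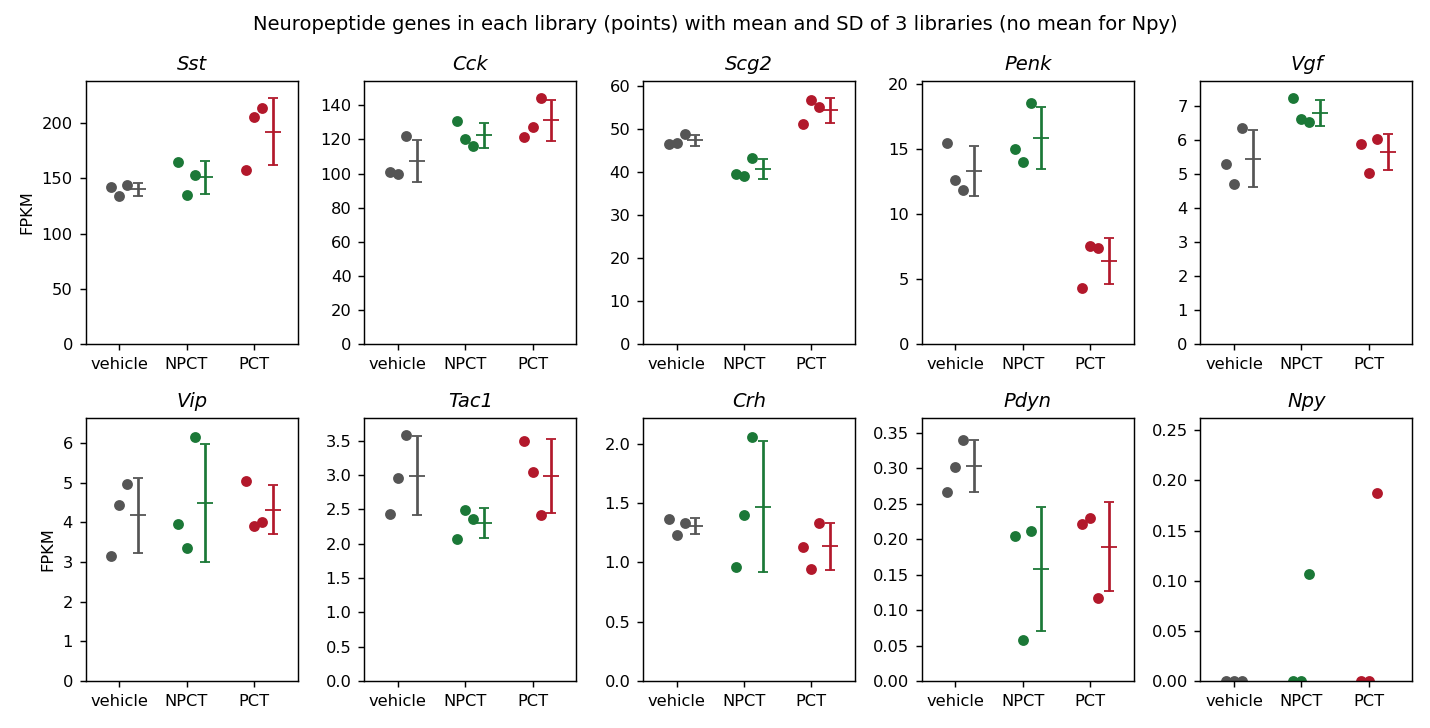
FPKM of the 10 neuropeptide genes (linear y axis from 0, a different scale per gene) in vehicle, NPCT and PCT libraries. Points are single libraries, and the bar beside them is the mean with SD of 3 libraries, left out for Npy, which was listed at 0 in 7 of 9 libraries; the 3 PCT libraries of Penk lie at 4.36 to 7.52 FPKM, below the 11.9 FPKM of the lowest vehicle library.

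Penk was the member that differed most between treatments. Penk (ENSRNOG00000008943, chromosome 5 from 17056419 to 17061837, minus strand, Rnor_6.0) encodes proenkephalin, from which the opioid peptides Met- and Leu-enkephalin are cut. It measured 15.5, 12.6 and 11.9 FPKM in the vehicle libraries (replicates 1 to 3), 15.0, 14.0 and 18.6 FPKM with NPCT and 4.36, 7.52 and 7.37 FPKM with PCT. The 3 PCT libraries were all below the vehicle and NPCT libraries, whose ranges overlapped each other. The counts behind these levels were 293 to 404 fragments per vehicle library and 110 to 220 per PCT library. The 78-base miRNA gene AABR07047044.1 overlaps Penk on the same strand and had at most 1 fragment in a library.

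Penk fell 2.11-fold with PCT against vehicle, a log2 fold change of -1.08 (standard error 0.21, 95% interval -1.55 to -0.60, Benjamini-Hochberg adjusted p = 0.0271 from limma). A gene was called when its adjusted p was at most 0.05 and its fold change above 1.5. By this rule 1.72% of the 15958 genes tested were called lower with PCT, and Penk was the 1 member among the 8 tested. Without PCT replicate 3 the log2 fold change was -1.20 (adjusted p = 0.0284, limma). The call was lost without vehicle replicate 1 (-0.96, adjusted p = 0.114), vehicle replicate 2 (-1.11, 0.0806) or vehicle replicate 3 (-1.15, 0.0676), with the replicate number as a block (adjusted p = 0.0533) and when the 2 groups were fitted alone (adjusted p = 0.0667).
NPCT left Penk within the vehicle range in 2 of 3 libraries, and the log2 fold change against vehicle was 0.25 (95% interval -0.23 to 0.73, adjusted p = 0.457, limma). In the direct comparison of the peptides, Penk was 2.50-fold higher with NPCT than with PCT, with a log2 difference of 1.32 (standard error 0.21, 95% interval 0.85 to 1.80, adjusted p = 0.0062, limma). It was the 1 member of 8 called higher there, beside 4.38% of all genes tested. The adjusted p stayed between 0.0014 and 0.0301 in 20 alternative analyses, and it was 0.0032 without PCT replicate 3 (log2 difference 1.44) and 0.0234 without NPCT replicate 3 (1.21).

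Most astrocyte markers and the microglial markers were also lower on average with PCT than with vehicle. Of the 12 astrocyte markers, all of them tested, 7 were called lower with PCT than with vehicle, beside 1.72% of all genes. The median log2 fold change over the list was -0.62, with 11 markers below 0 and 1 above. Their summed level was 2738 to 2943 FPKM in vehicle, 2709 to 2949 FPKM in NPCT and 2301 to 2355 FPKM in PCT libraries. Aldoc, a glycolytic enzyme of astrocytes, had the smallest adjusted p of them and fell from 331 ± 4.52 to 187 ± 6.03 FPKM. Of the microglial markers, 13 were tested and 4 were called lower with PCT (median -1.38), and their sums were 71.3 to 82.6 FPKM in vehicle and 51.7 to 55.9 FPKM in PCT libraries. With NPCT, replicates 1 and 2 had microglial sums of 80.6 and 76.4 FPKM and replicate 3 had 236 FPKM, and that library also had the highest Penk level of all 9. Against PCT, 4 of the 12 astrocyte markers and 8 of the 13 microglial markers were called higher with NPCT, beside 4.38% of all genes. With PCT replicate 3 left out, 5 astrocyte markers and 1 microglial marker were called lower with PCT than with vehicle (median -0.60 and -1.41), and 4 and 7 were called higher with NPCT than with PCT. Of all 15985 genes in that fit, 272 were called lower with PCT than with vehicle and 1136 higher with NPCT than with PCT. In that fit Gfap was the only astrocyte marker above 0 with PCT against vehicle (log2 fold change 0.24, adjusted p = 0.170, limma). It was not called. In vehicle the astrocyte marker Gfap stood at 776 FPKM and the microglial marker Trem2 at 0.505 FPKM. Oligodendrocyte lineage markers, 11 tested and 0 called, summed to 515 to 543 FPKM in vehicle, 566 to 600 FPKM in NPCT and 492 to 501 FPKM in PCT libraries, although 9 of the 11 were above 0 with PCT against vehicle (median 0.22). The markers of striatal neurons, in which Penk is abundant, summed to 16.0 to 17.0, 18.8 to 21.1 and 14.6 to 16.1 FPKM in the same order, PCT overlapping vehicle, and 1 of 5 tested, Ppp1r1b, was called higher with NPCT than with PCT. Fibroblast and vessel markers overlapped between PCT and vehicle, at 16.0 to 19.4 FPKM in vehicle, 15.2 to 17.3 FPKM in NPCT and 17.5 to 27.0 FPKM in PCT libraries, with Col3a1 called higher with PCT than with either other treatment, a call against vehicle that was lost without PCT replicate 3. The part of these cells in the Penk difference was not tested.

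**Figure D2:**
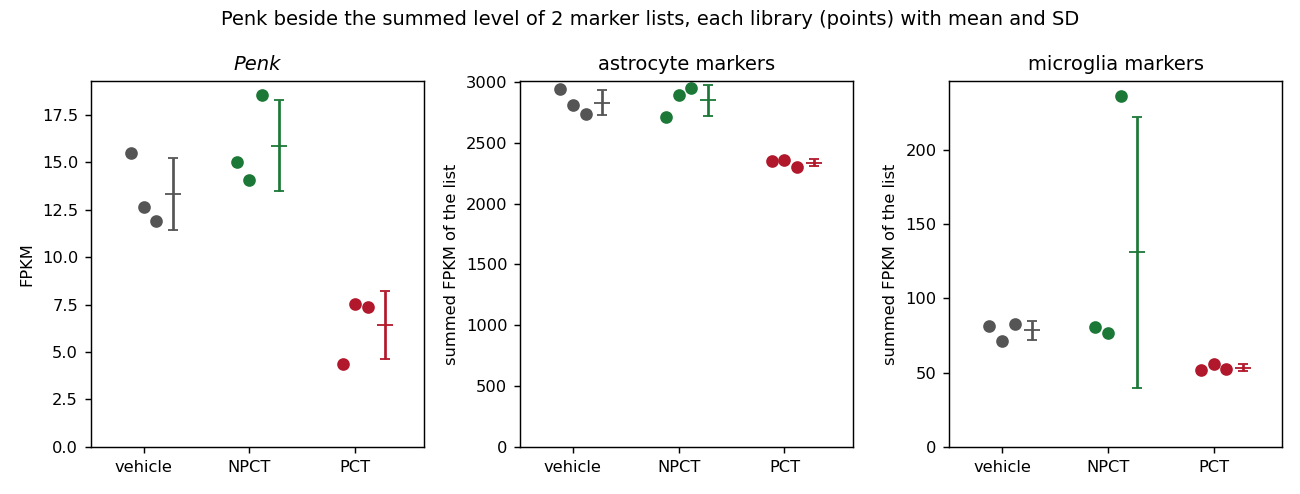
FPKM of Penk, and the summed FPKM of 12 astrocyte and of 13 microglial markers (linear y axes from 0), in each library (points) with the mean and SD of 3 libraries per treatment. All PCT libraries are lowest in the 3 panels, and NPCT replicate 3 has a microglial sum of 236 FPKM.

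The interneuron peptides Sst and Cck were higher on average with PCT, but neither passed the test. Sst (ENSRNOG00000001837, chromosome 11 from 80358211 to 80359444, plus strand) measured 142, 134 and 144 FPKM with vehicle, 165, 135 and 153 FPKM with NPCT and 158, 206 and 213 FPKM with PCT. The PCT libraries were all above the vehicle libraries, while NPCT overlapped both. Against vehicle, Sst had a log2 fold change of 0.45 with PCT (95% interval 0.18 to 0.71, adjusted p = 0.0726, limma) and of 0.10 with NPCT (-0.16 to 0.37, adjusted p = 0.583). With a lowess length trend removed these were 0.35 (adjusted p = 0.0837, limma) and -0.07 (adjusted p = 0.659). With a linear length trend removed they were 0.46 (adjusted p = 0.0460, limma) and 0.02 (adjusted p = 0.925). Without PCT replicate 3, the highest library, the PCT value was 0.36 (adjusted p = 0.127, limma), and without PCT replicate 1, the lowest of its group, it was 0.58 (adjusted p = 0.0152), still below 1.5-fold. NPCT and PCT differed in Sst by -0.34 on the log2 scale (-0.61 to -0.08, adjusted p = 0.0781, limma), or -0.26 without PCT replicate 3 (adjusted p = 0.134).
Cck (ENSRNOG00000019321, chromosome 8 from 130120523 to 130127392, minus strand) measured 101, 99.6 and 122 FPKM with vehicle, 131, 120 and 116 FPKM with NPCT and 122, 127 and 144 FPKM with PCT. Vehicle replicate 3 reached into the range of both peptide groups. The log2 fold change was 0.19 with NPCT (95% interval -0.03 to 0.41, adjusted p = 0.216, limma) and 0.29 with PCT (0.07 to 0.51, adjusted p = 0.139), and the peptides differed by -0.10 (-0.32 to 0.12, adjusted p = 0.512). With a lowess length trend removed, the NPCT and PCT values against vehicle were 0.06 and 0.21. With a linear one removed they were 0.13 and 0.31. Without PCT replicate 3 the difference of PCT from vehicle was 0.22 (adjusted p = 0.230, limma) and that of the peptides -0.03 (adjusted p = 0.858).

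The markers of the GABAergic neurons that make these peptides had no call against vehicle with either peptide in the 23 of 24 listed genes that were tested. Without PCT replicate 3 in the fit, 1 of the 23 was called higher with NPCT than with vehicle, beside 395 of all 15985 genes. Gad1, which makes GABA, measured 27.7 ± 1.20 FPKM in vehicle, 26.6 FPKM in NPCT and 32.3 FPKM in PCT libraries. Over the list, 10 markers were above 0 and 13 below with PCT against vehicle (median -0.0051), and 12 above and 11 below with NPCT (median 0.023). The summed level of the list was 407 to 411 FPKM in vehicle, 384 to 395 FPKM in NPCT and 384 to 398 FPKM in PCT libraries, so that both peptides lay below vehicle. Between the peptides, 2 of the 23 were called higher with NPCT, beside 4.38% of all genes, of which the transcription factor Maf differed by 0.95 on the log2 scale (adjusted p = 0.0041, limma). When PCT replicate 3 was left out, 4 were called higher and 1 lower, beside 1136 higher and 490 lower of all 15985 genes.
The markers of glutamatergic neurons, which also express Cck, summed to 563 to 607 FPKM in vehicle, 563 to 603 FPKM in NPCT and 503 to 551 FPKM in PCT libraries, so that PCT lay below vehicle. None of the 15 tested was called against vehicle, where 11 of 15 were below 0 with PCT (median -0.10), and 1, Nrgn, was called higher with NPCT than with PCT. General neuron markers, 14 tested, summed to 2578 to 2688, 2431 to 2512 and 2553 to 2780 FPKM in vehicle, NPCT and PCT libraries, with 0 called against vehicle and 1, Elavl4, called lower with NPCT than with PCT. Of the Cajal-Retzius markers 2 were tested and 0 called. The part of these cells in the Sst and Cck values was not tested.

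Neither of the granin-like members, Scg2 and Vgf, was called in any comparison. Scg2 (ENSRNOG00000015055, chromosome 9 from 85237458 to 85243001, minus strand) encodes the precursor of secretoneurin and measured 46.4, 46.7 and 48.9 FPKM with vehicle, 39.6, 39.1 and 43.2 FPKM with NPCT and 51.0, 56.8 and 55.0 FPKM with PCT. The 3 groups did not overlap, NPCT being lowest and PCT highest. Against vehicle the log2 fold change was -0.22 with NPCT (95% interval -0.36 to -0.08, adjusted p = 0.0704, limma) and 0.20 with PCT (0.05 to 0.34, adjusted p = 0.130), or 0.19 without PCT replicate 3 (adjusted p = 0.168). The adjusted p of the NPCT value was at most 0.05 in 2 of 20 alternatives (limma). It was 0.0402 without PCT replicate 3 and 0.0355 with the 2 groups fitted alone. In the others it reached up to 0.185, and the fold stayed below 1.5. Between the peptides Scg2 was lower with NPCT by a log2 difference of -0.42 (standard error 0.06, -0.56 to -0.27, adjusted p = 0.0051, limma). That is 1.34-fold, below the 1.5-fold of a call, and 16.3% of all genes tested had an adjusted p of at most 0.05 at any fold in this comparison. The adjusted p of this difference ranged from 0.0032 to 0.0325 over 20 alternatives, and without PCT replicate 3 the log2 difference was -0.41 (adjusted p = 0.0042, limma).
Vgf (ENSRNOG00000001416, chromosome 12 from 22677607 to 22680630, minus strand) gives rise to the peptide TLQP-21 among others and measured 5.29, 4.71 and 6.36 FPKM with vehicle, 7.24, 6.63 and 6.53 FPKM with NPCT and 5.88, 5.04 and 6.03 FPKM with PCT. All NPCT libraries were above all vehicle and PCT libraries, the nearest pair being 6.53 and 6.36 FPKM. The log2 fold change against vehicle was 0.32 with NPCT (95% interval 0.04 to 0.61, adjusted p = 0.132, limma) and 0.06 with PCT (-0.23 to 0.34, adjusted p = 0.867). The peptides differed by 0.27 (-0.02 to 0.55, adjusted p = 0.179, limma). Without PCT replicate 3 these PCT values were 0.01 and 0.31 (adjusted p = 0.986 and 0.133, limma).

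Vip, Tac1 and Crh had no call and wide intervals. Vip (ENSRNOG00000018808, chromosome 1) measured 3.14, 4.43 and 4.97 FPKM with vehicle, 3.95, 3.36 and 6.17 FPKM with NPCT and 5.03, 3.92 and 4.01 FPKM with PCT, and the 3 groups overlapped. Its log2 fold change was 0.08 with NPCT (95% interval -0.47 to 0.63) and 0.06 with PCT (-0.49 to 0.61, or 0.11 without PCT replicate 3), and both changed sign in alternative analyses.
Tac1 (ENSRNOG00000007374, chromosome 4) measured 2.44, 2.96 and 3.58 FPKM with vehicle, 2.06, 2.48 and 2.36 FPKM with NPCT and 3.49, 3.05 and 2.42 FPKM with PCT. Its NPCT libraries were at the low end of both other groups, overlapping them by 1 library each. The log2 difference of NPCT was -0.35 from vehicle (95% interval -0.78 to 0.07, adjusted p = 0.245, limma) and -0.35 from PCT (-0.77 to 0.08, adjusted p = 0.229), the latter -0.49 without PCT replicate 3 (adjusted p = 0.0899).
Crh (ENSRNOG00000012703, chromosome 2), which is known in the hippocampus from interneurons of the pyramidal layer, measured 1.36, 1.23 and 1.33 FPKM with vehicle, 0.957, 1.40 and 2.06 FPKM with NPCT and 1.13, 0.941 and 1.33 FPKM with PCT. These were 16 to 38 fragments per library. The vehicle libraries lay close together and the NPCT libraries were spread on both sides of them. The log2 fold change was 0.10 with NPCT (95% interval -0.54 to 0.74) and -0.20 with PCT (-0.84 to 0.44), or -0.32 without PCT replicate 3.

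Pdyn and Npy did not pass the filter of a mean of at least 0.5 FPKM over the 9 libraries. Pdyn (ENSRNOG00000026036, chromosome 3) measured 0.267, 0.303 and 0.340 FPKM with vehicle, 0.205, 0.0571 and 0.212 FPKM with NPCT and 0.221, 0.231 and 0.117 FPKM with PCT. All libraries of both peptides were below the vehicle libraries. The fragments of each group summed to 33 in vehicle (exact Poisson 95% interval 22.7 to 46.3), 17 in NPCT (9.90 to 27.2) and 21 in PCT (13.0 to 32.1), and these intervals, which cover counting error only, overlapped. In a fit without the filter the log2 fold change was -0.71 with NPCT (adjusted p = 0.308, limma) and -0.50 with PCT (adjusted p = 0.605).
Npy (ENSRNOG00000009768, chromosome 4 from 79557854 to 79565097) was listed at 0 in 7 of 9 libraries, with 1 fragment (0.107 FPKM) in NPCT replicate 3 and 2 fragments (0.188 FPKM) in PCT replicate 3. A count of 0 in a library allows up to 3 fragments (one-sided 95% limit), which is 0.322 to 0.364 FPKM in the 7 libraries listed at 0. Over the 3 libraries of a treatment the exact two-sided Poisson 95% interval reached up to 3.69 fragments for the 0 of vehicle, 5.57 for the 1 of NPCT and 7.22 for the 2 of PCT. No difference in Npy was detectable at these counts. Why Npy was listed at or near 0 was not tested.

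Taken over the members, NPCT against vehicle gave 0 calls among 8 tested, where 0.219% of all genes tested were called in either direction. Scg2 and Vgf had an unadjusted p under 0.05 there (2 of 8, beside 29.3% of all genes), and in 2 of 8 the groups did not overlap, beside 40.3% of all genes. With PCT against vehicle, 1 of 8 was called, beside 2.31% of all genes in either direction, 4 of 8 had an unadjusted p under 0.05, beside 18.9%, and 3 of 8 did not overlap, beside 24.9%. Between NPCT and PCT, 1 of 8 was called, beside 5.76%, 3 of 8 had an unadjusted p under 0.05, beside 33.1%, and 3 of 8 did not overlap, beside 33.4%. The median log2 difference of the 8 members was 0.10, 0.06 and -0.04 in these 3 comparisons in that order, and that of all genes tested was 0.0062, 0.0046 and -0.0076. An exact permutation test of a single gene in 3 and 3 libraries, two-sided, has a smallest p of 0.1, so the calls rest on the spread that limma shares across genes. The comparisons with vehicle share the vehicle libraries.

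**Figure D3:**
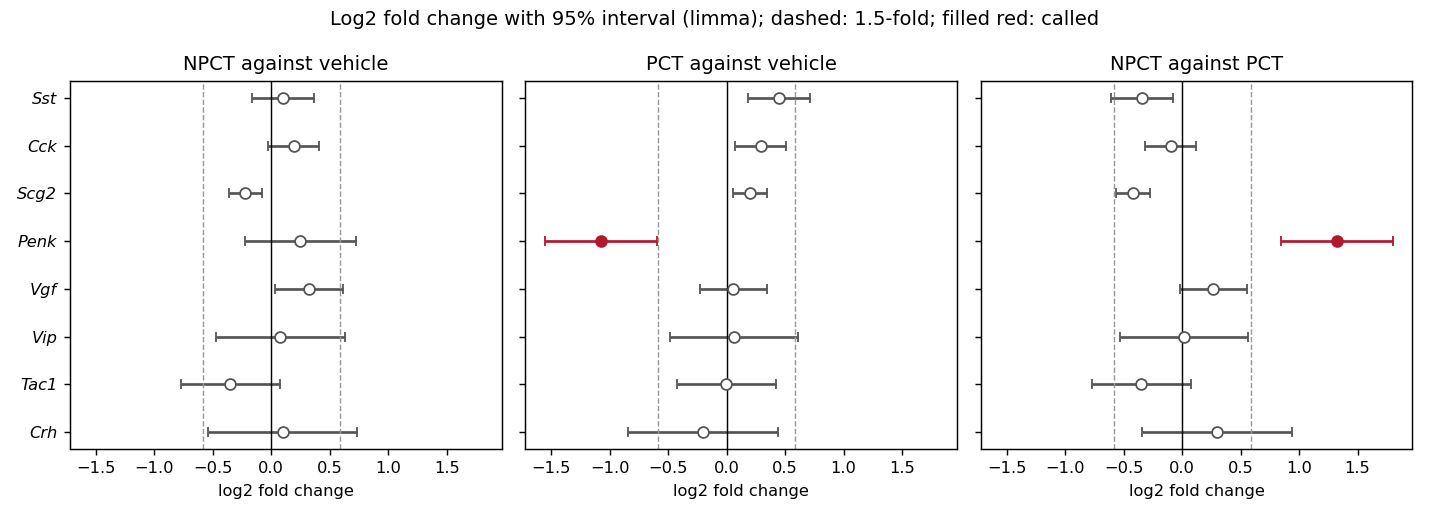
Log2 fold change (x axis) of the 8 members tested, with 95% intervals from limma, for NPCT against vehicle, PCT against vehicle and NPCT against PCT. Dashed lines mark a fold of 1.5 and filled red points mark calls; Penk alone is filled, at -1.08 with PCT and 1.32 between the peptides.

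The spread inside the groups was also read by library, and the share over all genes was not counted. Vehicle replicate 3 was the highest vehicle library in 7 of the 9 members above 0 (Cck, Pdyn, Scg2, Sst, Tac1, Vgf and Vip). Replicate 3 was the highest in 6 of 10 members in NPCT and in 5 of 10 in PCT. Both counts include Npy, with 1 fragment in NPCT replicate 3 and 2 in PCT replicate 3. Between groups, libraries of the same number correlated by only -0.09 to 0.17 in their departures from the group means. Vehicle replicate 3 had a sum of 428 FPKM over 26 genes induced by neuronal activity, against 282 and 286 FPKM in the other vehicle libraries and 293 to 363 FPKM in the peptide libraries. Among them, Fos averaged 14.9 ± 7.71 FPKM in vehicle, 10.5 ± 1.55 FPKM in NPCT and 16.2 ± 1.73 FPKM in PCT libraries. None of the 25 tested was called with either peptide, although 19 of 25 were below 0 with NPCT (median -0.24). Their part in the members' spread was not tested.

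Of 45 other neuropeptide precursors listed, 43 were in the table, 16 passed the filter and 11 were at 0 in all libraries. The highest were Nts, the precursor of neurotensin, at 17.6 ± 0.487 FPKM and Adcyap1, the precursor of PACAP, at 9.36 ± 0.867 FPKM in vehicle. None was called with NPCT against vehicle, and 13 of 16 were above 0 (median 0.51, beside 0.0062 over all genes tested). At an unadjusted p under 0.05 (limma), 2 were higher and 2 lower, beside 29.3% of all genes in either direction. The summed level of the list overlapped, at 53.0 to 58.4 FPKM in vehicle and 56.8 to 62.0 FPKM in NPCT libraries. The smallest adjusted p was that of Nts, which averaged 12.7 ± 1.50 FPKM with NPCT (log2 fold change -0.47, adjusted p = 0.0509, limma). Without PCT replicate 3 in the fit, 1 of the 16 was called higher with NPCT than with vehicle, beside 395 of all 15985 genes.
With PCT 2 of the 16 were called lower, beside 1.72% of all genes, and 12 of 16 were above 0 (median 0.07). Apln, the precursor of apelin, went from 5.56 ± 0.739 to 2.44 ± 0.570 FPKM (log2 fold change -1.17, adjusted p = 0.0169, limma), and Npb, the precursor of neuropeptide B, from 1.94 ± 0.776 to 0.426 ± 0.142 FPKM (-1.90, adjusted p = 0.0210). Without PCT replicate 3 the values were -1.31 for Apln (adjusted p = 0.0187, limma) and -1.75 for Npb (0.0459). Like Penk, both were also higher with NPCT than with PCT, by 1.34 for Apln (adjusted p = 0.0052) and 2.60 for Npb (0.0032) on the log2 scale. Nppc, the precursor of C-type natriuretic peptide, was the other one called higher there. Nts was called lower with NPCT than with PCT (-0.72, adjusted p = 0.0026, limma). These 4 of 16 (3 higher and 1 lower) stood beside 5.76% of all genes called in either direction. The 4 were also called without PCT replicate 3, with adjusted p from 0.0023 to 0.0118. Adcyap1 was called lower in that fit as well (-0.60, adjusted p = 0.0126, limma). Of all 15985 genes there, 1136 were called higher and 490 lower.
Calca, the rat gene that encodes procalcitonin and, by alternative splicing, CGRP, whose transcripts a gene-level FPKM does not separate, measured 0.962 ± 0.615 FPKM in vehicle, 1.36 FPKM in NPCT and 0.906 FPKM in PCT libraries, and was not called (log2 fold change with NPCT 0.60, adjusted p = 0.345, limma).

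**Figure D4:**
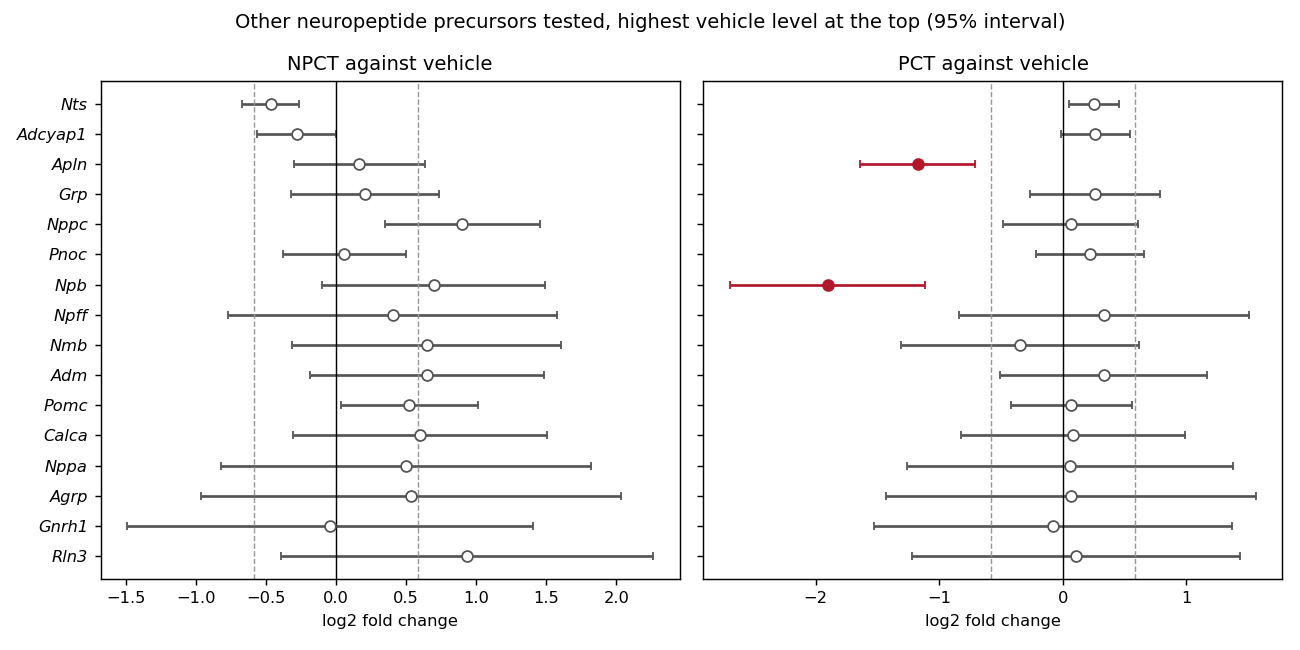
Log2 fold change (x axis) with 95% intervals of the 16 other neuropeptide precursors tested, ordered by vehicle level, for NPCT and PCT against vehicle. Filled red points mark calls, which are Apln at -1.17 and Npb at -1.90 with PCT, and dashed lines mark a fold of 1.5.

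The genes that store and cut the precursors were counted in the same way, beside the 0.219%, 2.31% and 5.76% of all genes called in the 3 comparisons. Of the other granins, 4 were tested and 0 were called in any comparison, with Scg3, which sorts granins to the granule, at 141 ± 3.11 FPKM in vehicle and 115 ± 2.56 FPKM in NPCT libraries (log2 fold change -0.29, adjusted p = 0.0608, limma). Of the processing enzymes, 14 were tested and 0 called. Cpe, the carboxypeptidase that trims the cut peptides, was by far the highest at 453 ± 5.35 FPKM in vehicle, 528 ± 43.6 FPKM in NPCT and 421 ± 3.84 FPKM in PCT libraries. It was higher with NPCT than with PCT by 0.32 on the log2 scale (adjusted p = 0.0157, limma), a fold of 1.25. The convertase Pcsk2 stood at 28.2 ± 0.282 FPKM in vehicle, whereas its relative Pcsk1, at 0.304 FPKM, did not pass the filter.
Of the genes for dense core vesicle release, 18 were tested and 0 were called with either peptide against vehicle. Syt4, a synaptotagmin of dense core vesicles, came nearest, at 159 FPKM in vehicle and 110 FPKM in NPCT libraries (log2 fold change -0.52, adjusted p = 0.0493, limma, below 1.5-fold). Without PCT replicate 3 in the fit, 1 of the 18 was called lower with NPCT than with vehicle, beside 166 of all 15985 genes. That gene was Rab27b, as Syt4 stayed below 1.5-fold. Between the peptides, the vesicle GTPase Rab27a was called higher with NPCT (1.23 on the log2 scale, adjusted p = 0.0318, limma) and its paralog Rab27b lower (-0.86, adjusted p = 0.0090), a share of 2 of 18 beside 5.76% of all genes. Both were also called without PCT replicate 3 (1.24 and -0.96, adjusted p = 0.0360 and 0.0036, limma). The summed level of the list was 771 to 778 FPKM in vehicle, 751 to 776 FPKM in NPCT and 834 to 870 FPKM in PCT libraries.
Of the 22 receptor and binding protein genes in the table, 11 were tested and 0 called. Adcyap1r1, the receptor of the VIP relative PACAP, was the highest at 106 ± 1.31 FPKM, and the somatostatin receptor genes Sstr1, Sstr2 and Sstr4 stood at 4.58, 5.20 and 4.09 FPKM in vehicle, while Sstr5 was listed at 0. Of the peptide degrading enzymes, 9 were tested and 0 called.

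For each member tested, the gene with the most similar pattern was sought as the smallest root mean square difference of log2 levels over the 9 libraries, each gene relative to its own mean. For Penk it was Col6a1, a chain of type VI collagen, with a difference of 0.13, while Penk itself departed from its mean by 0.63. Plekhb1 (0.17) and RGD1563354 (0.19) came next. For Sst it was mrpl24 (0.07), for Cck Uck2 (0.04), for Scg2 B3galnt1 (0.05) and for Vgf Ptpn14 (0.05), beside departures of 0.23, 0.16, 0.18 and 0.19 of these members themselves. The nearest genes of Tac1 (Pla2g4e, 0.11), Vip (Dxo, 0.13) and Crh (AABR07011951.1, 0.14) were farther off. None of the 8 nearest genes was another member. These are likenesses over libraries of mixed cultures and were given no test.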

How the data were processed

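RNA of 9 libraries (3 each of vehicle, NPCT and PCT) was sequenced, and the authors deposited a single table with the FPKM of 34092 genes, unlogged, with symbol, position and length of each gene. The submitters' processing notes name HISAT2 2.0.5, featureCounts 1.5.0-p3, StringTie 1.3.3b, DESeq2 1.20.0, CASAVA and the build Rnor_6.0. Multiplied by gene length, 100% of the FPKM above 0 were whole multiples of 1 step per library within 0.01 fragments, which gave the fragments per gene. The library divisors in the deposited FPKM differ from the library totals by a factor of 0.977 to 1.03, and the median ratio of each library to the geometric mean of all was 1, so no further scaling was needed.

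Log2(FPKM + 0.1) of the 15958 genes that averaged 0.5 FPKM or more entered limma 3.58.1 (lmFit, eBayes with trend, R 4.3.3), with 1 mean per group and all 9 libraries in the fit. P values were adjusted by Benjamini-Hochberg over all genes tested in a comparison, and genes under or at 0.05 that changed over 1.5-fold were called. Fold changes are on the scale of log2(FPKM + 0.1), which understates those of low genes. Limma on log values was the main test because FPKM is the deposited unit, and limma-voom on the recovered fragments, an alternative, called 355, 387 and 954 genes for NPCT and PCT against vehicle and NPCT against PCT, where the main test called 35, 368 and 919. Named genes were the 10 members, for each list the called genes with the smallest adjusted p (or the gene with the smallest p), the highest genes of a list, and the genes nearest to a member. Gfap, Trem2, Fos, Gad1, Calca, Pcsk1, Pcsk2 and the somatostatin receptors were named after their values were seen. The members and the lists were chosen with earlier results of these data known. Alternatives were other scalings, pseudocounts and filters, fits of 2 groups, a replicate block, removal of length trends, limma-voom on the recovered fragments and leaving out each library. Intervals of fragment counts cover counting error only. Promoter sequences came from RefSeq (GRCr8), while the expression table is on Rnor_6.0. No set test was run, and the rat genome was not used here.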

Additional observations from a re-analysis of the deposited data

How the results depend on the processing

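The number of members called was 0 for NPCT against vehicle and 1, Penk, for NPCT against PCT in each of the 20 alternatives. For PCT against vehicle it was 1 and went to 0 when only the 2 groups were fitted and under the replicate block, and it ranged from 0 to 1 when single libraries were left out. That call was lost without any one of the vehicle libraries. In these fits Penk stayed between -0.96 and -1.15. The replicate numbers were not treated as pairs, because libraries of the same number correlated by only -0.09 to 0.17 in their departures from the group means, and the block changed no other call of a member. Over all genes tested, the calls behind the background percentages numbered 35 (0 to 579 over the alternatives) for NPCT against vehicle, 368 (172 to 392) for PCT against vehicle and 919 (454 to 1626) for NPCT against PCT. For NPCT against vehicle, 561 of 15985 genes were called when PCT replicate 3 was left out.

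Among the values of single members, 457 kept direction and call, 5 (the Penk ones) lost the call and 18 changed sign, all of them in uncalled values. With NPCT against vehicle these were Sst (-0.070) and Crh (-0.0077) after removal of a lowess length trend, Vip without vehicle replicate 1 (-0.11), and Vip (-0.17) and Crh (-0.16) without NPCT replicate 3. With PCT against vehicle they were Tac1 with quantile normalization (0.047), a linear length trend removed (0.020), without vehicle replicate 3 (0.13) and without PCT replicate 3 (0.14), Vip without vehicle replicate 1 (-0.13) and without PCT replicate 1 (-0.05), and Vgf without vehicle replicate 2 (-0.042). Between the peptides, Vip changed sign with quantile normalization (-0.025), removal of a lowess (-0.0038) or linear (-0.036) length trend, and without NPCT replicate 3 (-0.23), PCT replicate 2 (-0.05) or PCT replicate 3 (-0.033). With single libraries left out, NPCT against vehicle ranged from -0.17 to 0.26 for Vip and from -0.16 to 0.35 for Crh, PCT against vehicle from -0.14 to 0.14 for Tac1, -0.13 to 0.20 for Vip and -0.042 to 0.17 for Vgf, and NPCT against PCT from -0.23 to 0.20 for Vip. The cause of these changes was not tested. Low fragment counts limit what can be said of Pdyn, Crh and Npy, with at most 38 fragments per library.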
